A study of Bos taurus with 15 samples.

Results

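The expression of 10 imprinted genes was examined in bovine blastocysts produced in vitro and cultured with or without extracellular vesicles of the oviduct (oEVs). The genes were chosen by symbol. IGF2R, GRB10, PHLDA2 and H19 were listed as expressed mainly from the maternal allele. PEG3, PEG10, NNAT, SNRPN, MEST and PLAGL1 were listed as expressed mainly from the paternal allele. These labels come from general knowledge of imprinting in mammals and were not tested in these embryos. All 10 genes were among the 34773 genes with deposited counts, and 6 of them were among the 10832 genes left by the authors' filter on low counts. The other 4, MEST, PHLDA2, PLAGL1 and H19, were read from the unfiltered counts. Control embryos (Co) were cultured without oEVs, FeEV embryos with oEVs used fresh after isolation, and FoEV embryos with oEVs that had been frozen and thawed. All embryos came from in vitro production and were collected at day 7 by the sample labels, while the paper describes a slightly longer culture, and the oEVs came from postovulatory oviducts of slaughtered cows. Each treatment had 5 libraries, each made from a pool of 8 to 14 embryos, so that a level is an average over embryos and over cell types. In such pools, fewer cells of a type and less RNA per cell cannot be told apart.

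Genomic imprinting is the expression of a gene from the allele of one parent, set by DNA methylation that is laid down in the germ line and has to be kept through the demethylation of the early embryo. Many imprinted genes act on growth, with maternally expressed genes often restraining and paternally expressed genes often promoting the growth of the fetus and placenta. In cattle, embryo culture in vitro has been linked with disturbed imprinting and fetal overgrowth. The reads were not split by allele here, so the values below are total levels of transcripts and do not measure imprinting itself.

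The libraries held 2136713 to 4058887 counts on genes, with treatment medians of 2779168 (Co), 3065710 (FeEV) and 3781117 (FoEV), and every FoEV library was deeper than every Co library. Levels are given as CPM, read counts relative to the library total after TMM scaling, and because CPM is not divided by transcript length, levels were not compared between genes. Of the trophectoderm, inner cell mass and hypoblast markers, 7 of 8, 4 of 5 and 4 of 5 passed the filter. All 7 trophectoderm markers were higher in FoEV than in Co, 4 of them (KRT18, GATA2, KRT8 and GATA3) with an unadjusted p under 0.05, a level passed by 15.1% of all genes, and their Co, FeEV and FoEV mean log2 CPM was 8.73 ± 0.15, 8.83 ± 0.18 and 8.98 ± 0.12 (SD, 5 libraries each). The FoEV minus Co difference of 0.25 had a two-sided exact permutation p of 0.0317. That p was the smallest among the 3 marker scores in 3 comparisons and was not adjusted for them. The markers were chosen with earlier results of these data known. Of the inner cell mass and the hypoblast markers, 3 of 4 each were lower in FoEV than in Co, with score differences of -0.20 and -0.15 (exact permutation p = 0.159 and 0.4365). NANOG, which marks the pluripotent cells, had log2 fold changes of -0.84 in FoEV vs. Co (unadjusted p = 0.00641, adjusted p = 0.178) and -0.62 in FeEV vs. Co (unadjusted p = 0.0342, adjusted p = 1). The other inner cell mass markers SOX2 and DPPA4 had -0.03 and -0.11 in FoEV vs. Co, and -0.32 and -0.09 in FeEV vs. Co. POU5F1 went the other way, with 0.21 (unadjusted p = 0.067) and 0.13. Of the markers of other cells, 1 of 4 oviduct genes (PAX8, 396 counts over all libraries) and 3 of 6 cumulus genes (CYP19A1 with 1026, FSHR with 407 and STAR with 245) passed the filter, and no blood or sperm gene did. FSHR had a log2 fold change of -0.55 in FeEV vs. Co (unadjusted p = 0.0254, adjusted p = 1), while CYP19A1 had 0.23 and STAR -0.01. The cumulus genes HAS2, PTX3 and TNFAIP6, which did not pass the filter, had 67, 1 and 13 counts over all libraries. The defining oviduct gene OVGP1 had 32 counts. Of the blood genes, the red blood cell gene HBB had none, PTPRC 3 and CD74 116. The counts of CD74 were 56 in Co, 26 in FeEV and 34 in FoEV, with 28 in Co replicate 1. The sperm gene PRM1 had 191, between 2 and 51 per library, with 71 in Co, 25 in FeEV and 95 in FoEV. The part of cell type shares and of depth in the values below was not tested, except where depth was equalized by thinning.

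None of the 6 genes that could be fitted passed an adjusted p of 0.05 in any of the 3 comparisons (edgeR quasi-likelihood test with the Benjamini-Hochberg adjustment over 10832 genes), nor did any under the robust likelihood ratio test or the Wald test of DESeq2. At an unadjusted p under 0.05, 0 of 6 passed in FoEV vs. Co, where 15.1% of all genes did. In FeEV vs. Co 2 of 6 passed, GRB10 with a higher and PEG3 with a lower level, where 4.15% of all genes did. In FoEV vs. FeEV 1 of 6 passed, NNAT with a higher level, where 8.52% of all genes did. With so few genes these counts are descriptions of single genes. Over all genes, 0.00923% passed the adjusted threshold in FoEV vs. Co and 0% in each of the other comparisons. The CPM ranges of the 5 libraries overlapped between the treatments for all 6 genes in every comparison, whereas they did not overlap for 2.6% of all genes in FoEV vs. Co, for 0.951% in FeEV vs. Co and for 1.5% in FoEV vs. FeEV. The median log2 fold change of the 6 genes was 0.09 in FoEV vs. Co, -0.13 in FeEV vs. Co and 0.08 in FoEV vs. FeEV, beside medians of 0.01, 0.00 and 0.01 over all genes. The comparisons of FoEV and of FeEV with Co share the Co libraries, so they are not independent.

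**Figure D1:**
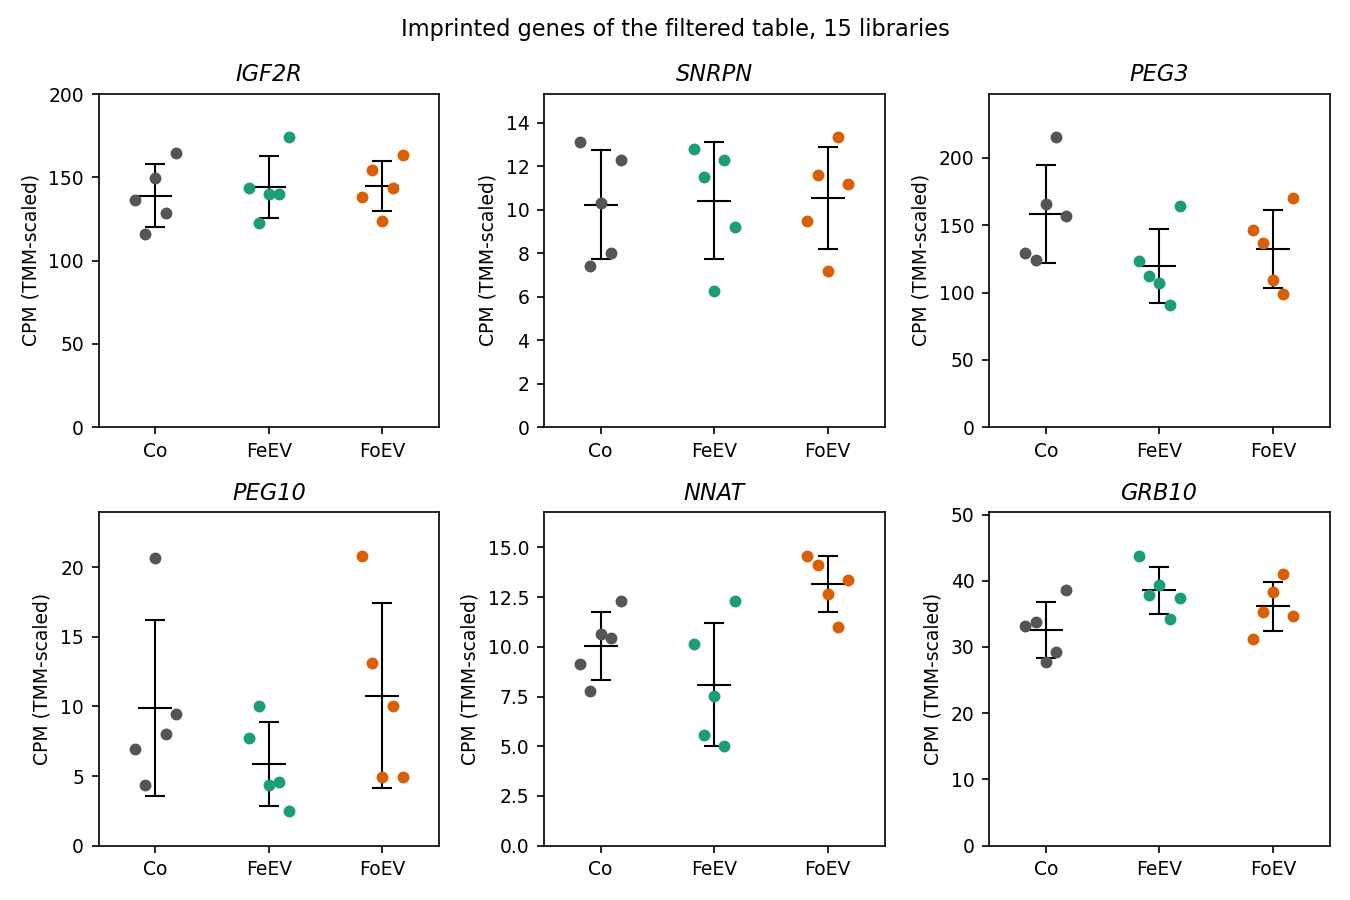
CPM (TMM-scaled) of the 6 imprinted genes of the filtered table in each library of Co, FeEV and FoEV. Points are libraries and bars show the mean ± SD of 5 libraries. The treatments overlapped for each gene, and the 5 FoEV libraries of NNAT sat between 11.02 and 14.6 CPM, 4 of them above the highest Co or FeEV library.

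IGF2R (gene 281849) encodes the mannose 6-phosphate receptor, which carries lysosomal enzymes and takes IGF2 to lysosomes for breakdown. The Co libraries held 116, 129, 136, 149.6 and 165 CPM. The FeEV libraries held 123, 140.1, 140.3, 144 and 174 CPM, and the FoEV libraries 124, 138, 144, 155 and 164 CPM. The 3 sets lay on top of each other, with Co, FeEV and FoEV means of 139 ± 18.7, 144 ± 18.8 and 145 ± 15.2 CPM (SD, 5 libraries each). The log2 fold change was 0.06 in FoEV vs. Co (SE 0.11, 95% interval -0.16 to 0.28, unadjusted p = 0.589, adjusted p = 0.824) and 0.06 in FeEV vs. Co (interval -0.17 to 0.28, adjusted p = 1). Between the oEV treatments it was 0.00 (interval -0.22 to 0.23, adjusted p = 0.994). As a fold, the interval of FoEV vs. Co ran from 0.892 to 1.22, so that a larger change of this receptor transcript lies outside the interval. The annotation places the antisense transcript AIRN across IGF2R, and AIRN had only 19 counts over the 15 libraries.

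GRB10 (gene 407210) encodes an adaptor that binds the insulin and IGF1 receptors and restrains their signalling. The Co libraries held 27.7, 29.3, 33.2, 33.7 and 38.6 CPM. The FeEV libraries held 34.2, 37.4, 37.9, 39.4 and 43.8 CPM, and the FoEV libraries 31.3, 34.6, 35.3, 38.3 and 41.1 CPM. Every FeEV library lay above 4 of the 5 Co libraries, and Co replicate 5 lay within the FeEV range. The Co, FeEV and FoEV means were 32.5 ± 4.24, 38.5 ± 3.52 and 36.1 ± 3.73 CPM (SD, 5 libraries each). In order of level FeEV came first, FoEV second and Co last, and neither pair of neighbours in that order had an unadjusted p under 0.05. In FeEV vs. Co the log2 fold change was 0.25 (SE 0.12, 95% interval 0.00 to 0.50, a fold of 1.19), with an unadjusted p of 0.0494 and an adjusted p of 1. With the counts thinned to the smallest library the value was 0.16 (unadjusted p = 0.230). In FoEV vs. Co it was 0.15 (interval -0.10 to 0.40, adjusted p = 0.572), and in FoEV vs. FeEV -0.10 (interval -0.35 to 0.14, adjusted p = 0.816).

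PEG3 (gene 444864) encodes a large zinc finger protein that acts in growth and in the response to cell stress. The Co libraries held 124.5, 129, 157, 166 and 216 CPM. The FeEV libraries held 91.1, 107, 113, 124 and 164 CPM, and the FoEV libraries 98.8, 109, 137, 147 and 170.4 CPM. Of the FeEV libraries 4 lay below the lowest Co library and the fifth among the higher Co values, while Co replicate 4 stood above all other libraries. The mean CPM of Co, FeEV and FoEV was 158.5 ± 36.5, 119.8 ± 27.5 and 132 ± 28.8 (SD, 5 libraries each). PEG3 was highest in Co, with FoEV second and FeEV last, and neither pair of neighbours had an unadjusted p under 0.05. The log2 fold change in FeEV vs. Co was -0.40 (SE 0.18, 95% interval -0.78 to -0.02, a fold of 0.760), with an unadjusted p of 0.0423 and an adjusted p of 1. Without Co replicate 4 it was -0.26, with an unadjusted p of 0.139, and with a block by the library number of the sample descriptions it was -0.67, with an unadjusted p of 0.00098. In FoEV vs. Co it was -0.26 (interval -0.63 to 0.12, adjusted p = 0.515), -0.52 with that block (unadjusted p = 0.00577, adjusted p = 0.196) and -0.12 without Co replicate 4, and in FoEV vs. FeEV 0.14 (interval -0.24 to 0.52, adjusted p = 0.836). Most description numbers do not hold all treatments, and a Co library alone under its number adds nothing to the values with that block. Over the 10 alternative settings, the unadjusted p of FeEV vs. Co ran from 0.000488 to 0.0554. The smallest adjusted p was 0.284, in the fit without the filter. The antisense gene APEG3, which overlaps PEG3 in the annotation, had 2 counts over all libraries.

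NNAT (gene 353114) encodes neuronatin, a small membrane protein of the endoplasmic reticulum that takes part in calcium handling. The Co libraries held 7.76, 9.12, 10.4, 10.6 and 12.3 CPM. The FeEV libraries held 5.01, 5.57, 7.51, 10.1 and 12.3 CPM, and the FoEV libraries 11.02, 12.7, 13.4, 14.1 and 14.6 CPM. All FoEV libraries but replicate 4 lay above the highest library of Co and of FeEV, and FoEV replicate 4 lay within both ranges. The mean CPM of Co, FeEV and FoEV was 10.1 ± 1.71, 8.10 ± 3.08 and 13.2 ± 1.4 (SD, 5 libraries each). FoEV came first, Co second and FeEV last, again with no unadjusted p under 0.05 between neighbours. In FoEV vs. FeEV the log2 fold change was 0.67 (SE 0.22, 95% interval 0.22 to 1.12, a fold of 1.59 with an interval of 1.16 to 2.17), with an unadjusted p of 0.00542. Its adjusted p was 0.486, and it ran from 0.104 to 0.762 over the other settings, so the difference did not pass the threshold over all genes. The log2 fold change was 0.40 in FoEV vs. Co (interval -0.05 to 0.84, adjusted p = 0.387) and -0.27 in FeEV vs. Co (interval -0.74 to 0.20, adjusted p = 1). NNAT lies within BLCAP in the annotation, and BLCAP was also expressed. BLCAP had Co, FeEV and FoEV means of 34.2 ± 3.81, 32.5 ± 2.52 and 37.5 ± 2.83 CPM (SD, 5 libraries each), and its log2 fold change in FoEV vs. FeEV was 0.21 (unadjusted p = 0.0792). Whether the counting used strand is not given in the sources used here, so reads of overlapping genes may not be separable.

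PEG10 (gene 618138) derives from a retrotransposon and is needed for the placenta to form. The Co libraries held 4.39, 6.93, 8.03, 9.44 and 20.6 CPM. The FeEV libraries held 2.51, 4.38, 4.55, 7.75 and 10.03 CPM, and the FoEV libraries 4.91, 4.96, 10.02, 13.1 and 20.8 CPM. Replicate 3 of Co and replicate 1 of FoEV stood at about the same high level, and the lowest library of all was FeEV replicate 5. The highest library held 8.29 times the CPM of the lowest. The mean CPM of Co, FeEV and FoEV was 9.88 ± 6.29, 5.85 ± 3 and 10.8 ± 6.63 (SD, 5 libraries each). The log2 fold change in FoEV vs. FeEV was 0.91, the largest of the 6 genes, with an interval of -0.13 to 1.94 (unadjusted p = 0.0811, adjusted p = 0.609). In FeEV vs. Co it was -0.78 (interval -1.85 to 0.29, adjusted p = 1) and in FoEV vs. Co 0.13 (interval -0.85 to 1.10, adjusted p = 0.921). Without FoEV replicate 1 the value of FoEV vs. FeEV was 0.51, and without Co replicate 3 that of FeEV vs. Co was -0.30. Changes of more than 3-fold lie within the interval of FoEV vs. FeEV, whose upper bound was a fold of 3.84. SGCE, the neighbour that shares an imprinted region with PEG10 in mammals, had 9 counts over all libraries and could not be followed.

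SNRPN (gene 780877) encodes a protein of the spliceosome, and its paralog SNRPB encodes a very similar one. The Co libraries held 7.42, 8.03, 10.3, 12.3 and 13.1 CPM. The FeEV libraries held 6.26, 9.22, 11.5, 12.3 and 12.8 CPM, and the FoEV libraries 7.16, 9.49, 11.2, 11.6 and 13.4 CPM. The ranges coincided, and the Co, FeEV and FoEV means of 10.2 ± 2.52, 10.4 ± 2.7 and 10.6 ± 2.34 CPM (SD, 5 libraries each) lay within a small part of the SD. The log2 fold change was 0.04 in FoEV vs. Co (95% interval -0.43 to 0.51, adjusted p = 0.951), 0.02 in FeEV vs. Co (interval -0.47 to 0.50, adjusted p = 1) and 0.02 in FoEV vs. FeEV (interval -0.44 to 0.49, adjusted p = 0.986). SNRPB held 75.6 ± 6.07, 73.7 ± 6.74 and 75.95 ± 10.2 CPM in Co, FeEV and FoEV (SD, 5 libraries each), and its log2 fold changes were 0.01, -0.04 and 0.04 in the same order of comparisons. Reads that fit both paralogs may have been assigned to either, which makes the SNRPN level uncertain. The overlapping SNURF had no count.

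**Figure D2:**
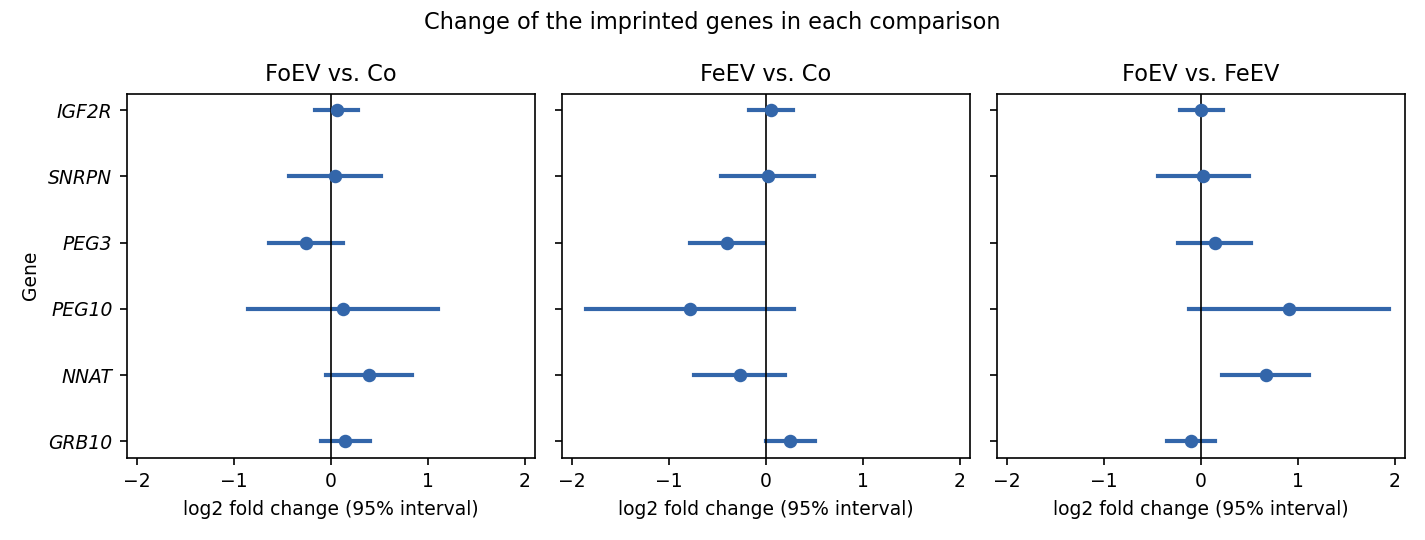
Log2 fold change of the 6 imprinted genes in FoEV vs. Co, FeEV vs. Co and FoEV vs. FeEV, from 1 edgeR fit over 15 libraries. Points are estimates and lines 95% intervals, which reach from -0.13 to 1.94 for PEG10 and from 0.22 to 1.12 for NNAT in FoEV vs. FeEV.

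The 4 genes outside the filtered table had few reads. In the unscaled counts, a value of 3 was taken as the floor below which a level is not read, which is 0.739 to 1.40 CPM depending on the library. MEST (gene 404180), which encodes a protein of the hydrolase family and is expressed in mesoderm, had 16, 7, 13, 7 and 6 counts in the Co libraries, 7, 9, 4, 4 and 2 in FeEV and 11, 5, 7, 12 and 8 in FoEV. The sums were 49, 26 and 43 counts, and the means 3.51 ± 1.51, 1.80 ± 1.02 and 2.35 ± 1.01 CPM (SD, 5 libraries each). FeEV had the fewest counts, and its range overlapped those of Co and FoEV. The mean log2 CPM of FeEV was 0.81 below that of Co (difference -0.81, two-sided exact permutation p = 0.0635), that of FoEV 0.47 below Co (difference -0.47, exact permutation p = 0.143), and that of FoEV 0.35 above FeEV (difference 0.35, exact permutation p = 0.349). With 5 libraries on each side, p cannot go below 0.00794. MEST overlaps COPG2 in the annotation, which had 774 counts, and reads of the pair may not be separable.

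PHLDA2 (gene 618810) encodes a small protein that restrains growth of the placenta. It had 4, 6, 9, 7 and 12 counts in the Co libraries, 10, 4, 6, 10 and 2 in FeEV and 16, 17, 29, 12 and 5 in FoEV. FoEV replicate 3 stood out and FoEV replicate 5 lay among the lowest libraries. The sums were 38, 32 and 79 counts, and the means 2.79 ± 1.27, 2.27 ± 1.51 and 4.22 ± 2.38 CPM (SD, 5 libraries each). Mean log2 CPM was 0.43 higher in FoEV than in Co (two-sided exact permutation p = 0.3095), 0.76 higher in FoEV than in FeEV (exact permutation p = 0.175) and -0.33 in FeEV minus Co (exact permutation p = 0.444). The totals over all genes were 18754667 counts in FoEV, 13967506 in Co and 14951741 in FeEV.

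PLAGL1 (gene 539761), a zinc finger regulator of other imprinted genes, had 0 to 4 counts in any library, with 5 counts over the Co, 5 over the FeEV and 10 over the FoEV libraries. H19 (gene 100126192), a noncoding RNA of the IGF2 domain, had 0 to 2 counts, with sums of 2, 2 and 4. A count of 0 in H19, as in 10 of the 15 libraries, allows up to 3 counts. Its neighbour IGF2, the growth factor that IGF2R removes, had 6 counts over all libraries and at most 2 in any. Levels of these 3 genes were not readable at this depth, and no fold is given.

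**Figure D3:**
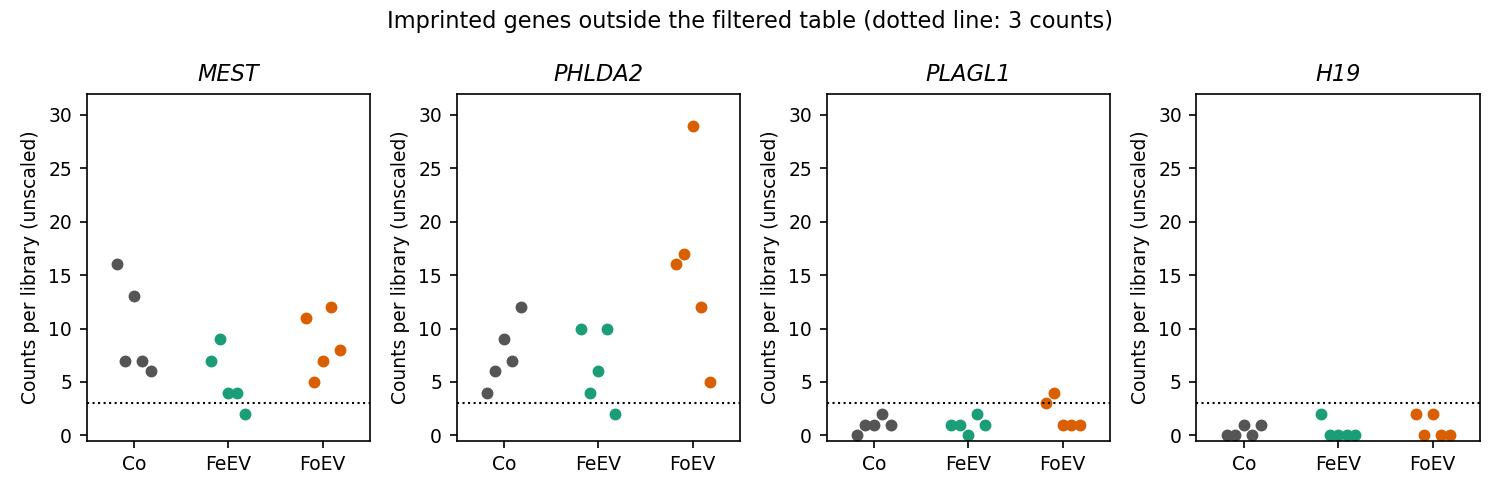
Unscaled counts of MEST, PHLDA2, PLAGL1 and H19 in each library of Co, FeEV and FoEV, with a dotted line at 3 counts. PLAGL1 and H19 lie at 4 counts or fewer in all libraries, and PHLDA2 reached 29 counts in 1 FoEV library.

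The 6 genes differed in how much they varied between libraries of the same treatment. The SD of log2 CPM within treatments was 0.77 for PEG10, and only 1.74% of all filtered genes had a larger one. It was 0.36 for SNRPN, 0.34 for NNAT, 0.32 for PEG3, 0.18 for IGF2R and 0.15 for GRB10, beside a median of 0.25 over all genes, and 85% of the genes had a larger SD than GRB10. The CV of PEG10 in Co, FeEV and FoEV was 63.6%, 51.3% and 61.5%, while the counting error at its depth would give 19%, 24.1% and 15.5%. For NNAT the CV was 17%, 38% and 10.6% in the same order, and the counting error was 19.1%, 19.8% and 14.2%. The CV of NNAT lay above the counting error in FeEV and below it in Co and FoEV. For SNRPN the counting error was 18.9%, 18% and 16% in the same order, and for GRB10 10.6%, 9.25% and 8.68%. The rank of an SD among all genes was not matched for level, so it also reflects counting error.

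**Figure D4:**
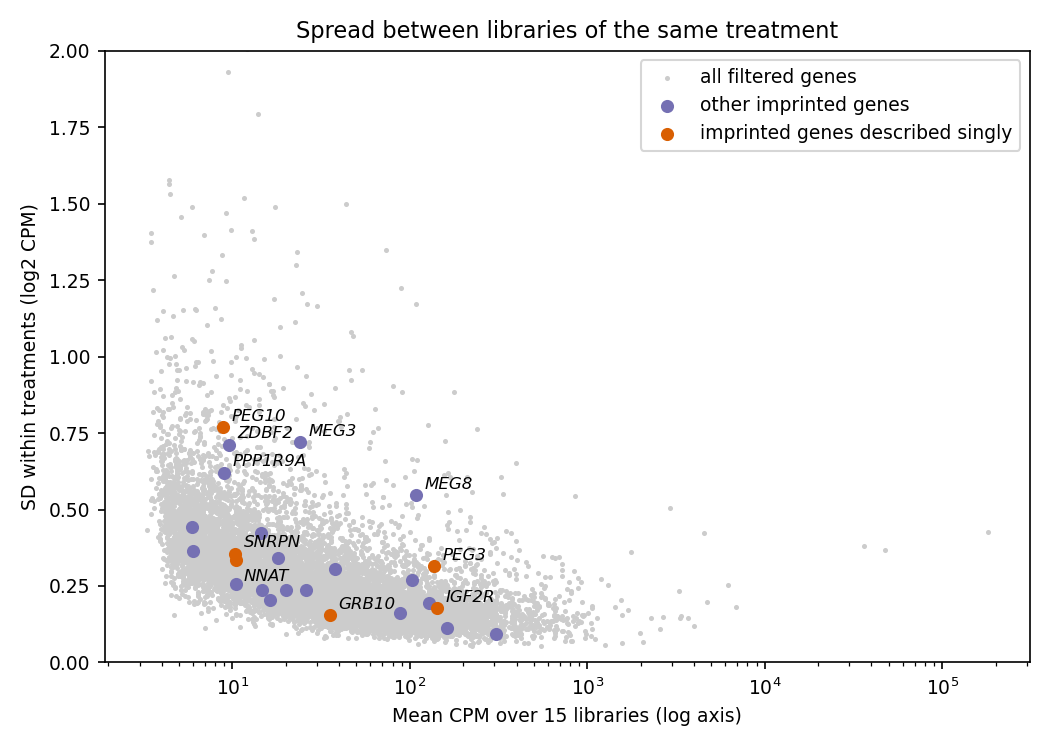
SD of log2 CPM within treatments (residual, 15 libraries) against mean CPM on a log axis, for all filtered genes in grey, the 6 imprinted genes in orange and 19 other imprinted genes in purple. PEG10, at 0.77, lies in the upper part of the cloud, and GRB10, at 0.15, in the lower part.

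Relations across the 15 libraries were computed on log2 CPM after subtracting the treatment means. Among 39 relations, of pairs of genes and of genes with marker scores, PEG3 and NNAT went together (r = 0.707, permutation p = 0.00201, adjusted p = 0.0392, Spearman rho = 0.761, permutation p = 0.00223, adjusted p = 0.0441). Without the 2 libraries farthest from the median of PEG3, r was 0.653, and within Co, FeEV and FoEV it was 0.607, 0.892 and 0.772. IGF2R and NNAT followed with r = 0.667 (permutation p = 0.0068, adjusted p = 0.0884, rho = 0.636, permutation p = 0.0195, adjusted p = 0.248). This relation had r = 0.893 in Co, 0.798 in FeEV and 0.182 in FoEV, and r was 0.4495 without the 2 libraries farthest from the median of IGF2R. NNAT and BLCAP, which overlap, had r = 0.04 (permutation p = 0.894, adjusted p = 0.968, rho = -0.02, permutation p = 0.944, adjusted p = 0.995, and r = 0.275 without the 2 libraries farthest from the median of NNAT). The score of the trophectoderm markers had r = 0.619 with NNAT (permutation p = 0.0495, adjusted p = 0.287, rho = 0.468, permutation p = 0.138, adjusted p = 0.580, and r = 0.412 without the 2 libraries farthest from the median of NNAT). Within Co, FeEV and FoEV this r was 0.499, 0.834 and 0.052. The score was highest in FoEV, as NNAT was, but it was lowest in Co, whereas NNAT was lowest in FeEV. Among the other marker relations, the unadjusted p of r was also under 0.05 for IGF2R with the trophectoderm score (r = 0.568, permutation p = 0.0485, adjusted p = 0.287, rho = 0.439, permutation p = 0.135, adjusted p = 0.580, and r = 0.343 without the 2 libraries farthest from the median of IGF2R). So it was for PEG10 with the hypoblast score (r = -0.598, permutation p = 0.038, adjusted p = 0.287, rho = -0.32, permutation p = 0.280, adjusted p = 0.650), where r was -0.17 without the 2 libraries farthest from the median of PEG10. Within Co, FeEV and FoEV, r was 0.784, 0.802 and -0.168 for IGF2R with the trophectoderm score. For PEG10 with the hypoblast score it was -0.609, -0.198 and -0.759. By rank, NNAT also had an unadjusted p under 0.05 with the inner cell mass score (rho = -0.55, permutation p = 0.0255, adjusted p = 0.248). Its r was -0.428 (permutation p = 0.0515, adjusted p = 0.287), and -0.639 without the 2 libraries farthest from the median of NNAT. Within Co, FeEV and FoEV that r was -0.468, -0.507 and -0.835. The libraries share depth and composition, and the relations were chosen with the data in view.

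By the same measure, the gene most like each of the 6 over the 15 libraries was OXSR1 for IGF2R (r = 0.877), PRORSD1 for GRB10 (r = 0.844), IGF2BP3 for PEG3 (r = 0.886), EPHB2 for NNAT (r = 0.882), FMR1NB for PEG10 (r = 0.930) and EGR1 for SNRPN (r = 0.786). These are the highest of 10832 genes, so high values arise for every gene. PEG10 had 45 genes with an r over 0.8, NNAT 29, IGF2R 14, PEG3 4, GRB10 3 and SNRPN none.

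Of 48 other genes with imprinted expression in mammals, 44 were in the deposited counts and 19 in the filtered table. At an unadjusted p under 0.05, 3 of 19 passed in FoEV vs. Co, 0 of 19 in FeEV vs. Co and 2 of 19 in FoEV vs. FeEV, beside 15.1%, 4.15% and 8.52% of all genes, and none passed an adjusted p of 0.05. Whether the listed genes were imprinted in these embryos was not tested. UBE3A, the ubiquitin ligase lost in Angelman syndrome, passed the unadjusted threshold in both comparisons of FoEV, which share its libraries and are not independent. Its Co libraries held 158, 164, 174, 177 and 180.2 CPM, its FeEV libraries 163.5, 164, 173, 183.5 and 189 CPM, and its FoEV libraries 118, 139.5, 144, 152 and 154 CPM. No FoEV library reached the lowest Co or FeEV library, and UBE3A was the one gene of the 19 with such a gap in either, a gap shown by 2.6% and 1.5% of all genes in FoEV vs. Co and FoEV vs. FeEV. The log2 fold change was -0.27 in FoEV vs. Co (SE 0.09, 95% interval -0.45 to -0.09, unadjusted p = 0.00497, adjusted p = 0.167) and -0.30 in FoEV vs. FeEV (SE 0.09, interval -0.48 to -0.12, unadjusted p = 0.00202, adjusted p = 0.4501). In FeEV vs. Co it was 0.03 (interval -0.15 to 0.21).

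NDN, which lies in the same imprinted domain as SNRPN and UBE3A and restrains cell growth, had Co, FeEV and FoEV means of 17.5 ± 3.83, 19.9 ± 2.19 and 22.9 ± 3.75 CPM (SD, 5 libraries each), with a log2 fold change of 0.38 in FoEV vs. Co (unadjusted p = 0.0303, adjusted p = 0.275). TRAPPC9, a subunit of a vesicle transport complex, had 12.3 ± 3.44, 14.7 ± 1.81 and 17.1 ± 1.64 CPM (SD, 5 libraries each), and its log2 fold change in FoEV vs. Co was 0.46 (unadjusted p = 0.0141, adjusted p = 0.216). CD81, a tetraspanin that is also abundant in EV membranes, had 129.7 ± 10.4, 117.8 ± 13.1 and 139.5 ± 27.8 CPM (SD, 5 libraries each), and its log2 fold change in FoEV vs. FeEV was 0.24 (unadjusted p = 0.0480, adjusted p = 0.578). The most reads of the list, which depend on transcript length as well as level, fell on GNAS, the stimulatory G protein subunit, with a mean of 305 CPM, on UBE3A with 162 and on CD81 with 129. At most 3 counts in every library were found for 14 of the 25 genes that the filter removed.

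**Figure D5:**
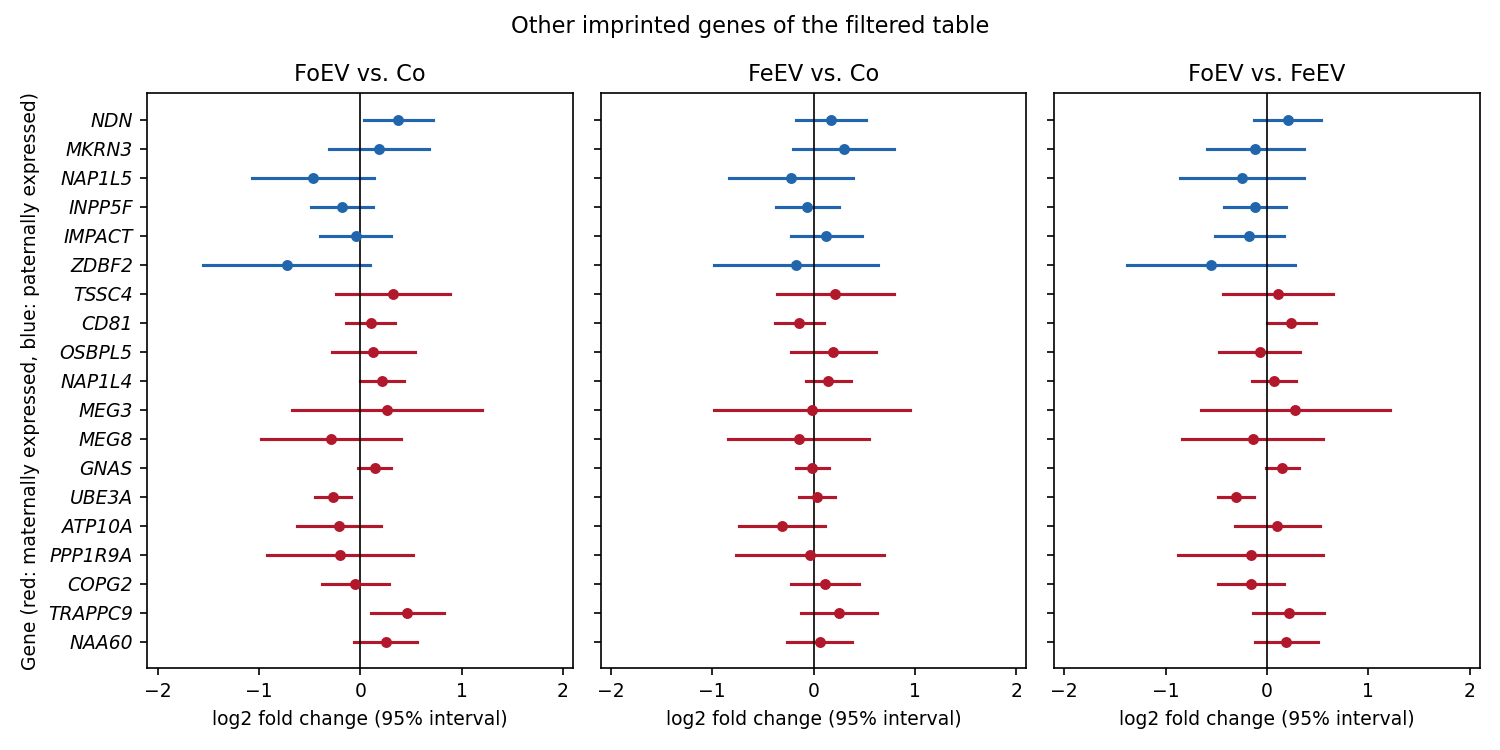
Log2 fold change with its 95% interval of the 19 other imprinted genes of the filtered table in the 3 comparisons, with genes listed as paternally expressed in blue and genes listed as maternally expressed in red. UBE3A lies below 0 in both comparisons of FoEV, at -0.27 and -0.30, and at 0.03 in FeEV vs. Co.

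Of 17 listed genes that help to keep imprints in the oocyte and early embryo, 12 were in the filtered table. NLRP2, NLRP5, PADI6, OOEP and KHDC3L were not, with 9, 29, 68, 168 and 187 counts over all libraries. FeEV replicate 3 held 65 of the counts of KHDC3L and 19 of those of PADI6, the highest library of each. Of the 12, 1 had an unadjusted p under 0.05 in FoEV vs. Co, 0 in FeEV vs. Co and 0 in FoEV vs. FeEV, beside 15.1%, 4.15% and 8.52% of all genes. That gene was SMCHD1, a chromatin protein of silenced genes, with Co, FeEV and FoEV means of 245 ± 31.1, 227 ± 37.9 and 201 ± 19.1 CPM (SD, 5 libraries each) and a log2 fold change of -0.28 in FoEV vs. Co (unadjusted p = 0.0196, adjusted p = 0.235). TRIM28 and ZFP57, which bind methylated imprinting control regions together, had log2 fold changes of 0.05 and -0.12 in FoEV vs. Co and -0.05 and 0.01 in FeEV vs. Co.

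Of 20 genes of the insulin-like growth factor axis, in which IGF2R and GRB10 act, 15 were in the filtered table. Of these, 3 had an unadjusted p under 0.05 in FoEV vs. Co, 3 in FeEV vs. Co and 2 in FoEV vs. FeEV, beside 15.1%, 4.15% and 8.52% of all genes. IGFBP4, which binds IGFs, had Co, FeEV and FoEV means of 12.9 ± 4.83, 7.40 ± 1.98 and 8.61 ± 2.46 CPM (SD, 5 libraries each). Its log2 fold change was -0.79 in FeEV vs. Co (unadjusted p = 0.00878, adjusted p = 1) and -0.57 in FoEV vs. Co (unadjusted p = 0.0420, adjusted p = 0.312). GNPTG, a subunit of the enzyme that makes the mannose 6-phosphate tag read by IGF2R, had log2 fold changes of 0.47 in FoEV vs. Co (unadjusted p = 0.00841, adjusted p = 0.188) and 0.35 in FeEV vs. Co (unadjusted p = 0.0469, adjusted p = 1). The insulin receptor INSR had -0.35 in FoEV vs. Co (unadjusted p = 0.0494, adjusted p = 0.330), and IGFBP3 had -0.29 in FeEV vs. Co (unadjusted p = 0.0425, adjusted p = 1). IRS2, which carries the signal of these receptors, and IGFBP2 had 0.60 and 0.50 in FoEV vs. FeEV (unadjusted p = 0.00988 and 0.0236, adjusted p = 0.496 and 0.533). The most reads of this list, again not corrected for length, fell on GNPTAB, IGF2BP1 and IGF2BP3, with means of 290.3, 254 and 114 CPM.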

How the data were processed

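RNA of pools of bovine blastocysts was sequenced in 15 libraries, 5 per treatment, grouped by their titles. The authors deposited read counts per gene without normalization, once for all genes and once filtered. The submitters' processing notes name Trim Galore 0.4.3.1, HISAT2 2.1.0 and featureCounts 1.6.3. The paper's methods name another counter and the bovine assembly ARS-UCD1.2, and the strand setting is not given in the sources used here. The filtered counts were scaled by TMM and fitted in edgeR 4.0.16 (R 4.3.3) with treatment as the only factor over all libraries. The quasi-likelihood F test was applied with the Benjamini-Hochberg adjustment over all filtered genes at a threshold of 0.05. Log2 CPM used a prior count of 2. Genes outside the filtered table were compared with two-sided exact permutation tests over 252 assignments. Relations used 100000 permutations within treatments, and their tests, the SDs and the pairs with neighbours were added after seeing the data. DESeq2 1.42.0, Python 3.11.15, scipy 1.17.1, numpy 2.4.6, pandas 2.3.3 and matplotlib 3.10.9 were also used, and the tests were tested on simulated data.

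The genes and lists were chosen with earlier results of these data known. The text names the 10 genes in every comparison, of the lists of other imprinted genes, imprint maintenance and the IGF axis those that reached an unadjusted p under 0.05 anywhere and the 3 with the highest mean CPM, the gene most like each of the 6, and overlapping genes or paralogs. Genes of the imprint maintenance list outside the filtered table are named with their counts. Genes that overlap were taken from a newer RefSeq table by identifier (10709 of 10832 matched), and no coordinates are given because the assembly differs. Nothing states whether pools came from separate oocyte collections, so p-values measure the spread between these pools. By the paper, fresh and frozen oEVs were split from the same oviduct material. The labels do not say which FeEV and FoEV libraries share it, so the main fit did not pair them. The pools sequenced were picked by the authors for RNA quality and concentration. The counts of libraries of the same treatment differed by more than sampling noise, so each was counted as 1 sample. The floor of 3 counts covers counting error only, because without molecular identifiers a read is not an independent molecule.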

Additional observations from a re-analysis of the deposited data

How the results depend on the processing

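No gene of the 6 passed an adjusted p of 0.05 under any of 10 alternative settings or without any 1 of the 15 libraries. The number with an unadjusted p under 0.05 moved. In FoEV vs. Co it was 0, and 1 with the robust likelihood ratio test and with only the 2 treatments compared (NNAT), and 1 without the filter, where all 10 genes were tested, and with a block by description number (PEG3). In FeEV vs. Co it was 2, and 1 (PEG3) with DESeq2, with its size factors, with only the 2 treatments compared, with the replicate block and without rRNA genes, and 0 after thinning. It was 3 with the block by description number (GRB10, PEG3 and PEG10), and 2 of 10 without the filter (MEST and PEG3, not GRB10). Leaving out 1 library gave 0 to 2, with 0 without Co replicate 3 or 4, FeEV replicate 1, 2 or 3, or FoEV replicate 2. In FoEV vs. FeEV it was 1, and 2 with DESeq2 and the block by description number (NNAT and PEG10) and 3 of 10 without the filter (with PHLDA2). Leaving out 1 library gave 1 to 2, with NNAT always among them and PEG10 added without Co replicate 3, FeEV replicate 2, or FoEV replicate 3 or 5. PEG10 then ran from 0.51 to 1.18 in FoEV vs. FeEV and from -1.05 to -0.30 in FeEV vs. Co. The replicate block gave 0, 1 and 1 in the 3 comparisons. Of the pairs of libraries with the same replicate number, 1, 3 and 3 of 5 correlated over 0.1. Their mean correlations were 0.03, 0.14 and 0.19, beside -0.01, -0.03 and -0.05 for pairs of other numbers. The replicate numbers of the titles mostly differ from the library numbers of the sample descriptions. These pairs therefore cannot show whether libraries of the same description number share an origin. Whether libraries of the same replicate number share an origin was not tested. Correlations of pairs with the same description number were not computed.

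For the other imprinted genes, 41 and not 19 were tested without the filter, where FoEV vs. Co gave 5 in place of 3 and FeEV vs. Co 4 in place of 0. These 4, AIRN, IGF2, SLC22A3 and USP29, had at most 3 counts in any library and are not readable. FeEV vs. Co gave 1 with the block by description number, and 0 to 1 when 1 library was left out. FoEV vs. FeEV gave 1 in place of 2 with the robust test, the size factors of DESeq2, the filter stated in the methods, only the 2 treatments compared and thinning, and 1 to 3 when 1 library was left out. UBE3A was in all of these counts of FoEV.

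Signs turned for values that passed no threshold. IGF2R in FoEV vs. FeEV was -0.0046 without the filter and -0.0448 with the block by description number, which also gave -0.0524 for SNRPN in FoEV vs. FeEV and -0.15 for PEG10 in FoEV vs. Co, and the replicate block gave -0.0069 for SNRPN in FeEV vs. Co. Leaving out 1 library gave -0.0236 to 0.12 for IGF2R in FeEV vs. Co and -0.0487 to 0.083 in FoEV vs. FeEV. SNRPN ran from -0.0585 to 0.15, -0.0818 to 0.16 and -0.12 to 0.13 in FoEV vs. Co, FeEV vs. Co and FoEV vs. FeEV, and PEG10 from -0.27 to 0.61 in FoEV vs. Co. The difference of MEST in FeEV vs. Co was -0.99 (unadjusted p = 0.0309) in the fit without the filter and -1.01 without FeEV replicate 2 (exact permutation p = 0.0159), and in FoEV vs. Co -0.64 without FoEV replicate 4 (exact permutation p = 0.0476). PHLDA2 in FoEV vs. FeEV was 0.94 without the filter (unadjusted p = 0.0208). The cause was not tested. PLAGL1 and H19, with at most 4 and 2 counts in a library, entered only the counts without the filter, and alternatives of their own differences were not run. Over all genes, the 1, 0 and 0 genes past the adjusted threshold in FoEV vs. Co, FeEV vs. Co and FoEV vs. FeEV became 311, 6 and 31 with the robust test and 138, 1 and 3 with DESeq2, and 173, 13 and 22 of 25470 without the filter. The replicate block gave 57, 0 and 0, the block by description number 12, 0 and 1, thinning 7, 0 and 0, and only the 2 treatments compared 5, 0 and 0.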

Other observations

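Among the other imprinted genes, 3 of 19 lay among the 5% of genes with the largest spread within treatments, as PEG10 did among the 6. These were MEG3, ZDBF2 and PPP1R9A, with SDs of log2 CPM of 0.72, 0.71 and 0.62. MEG3, a noncoding RNA of the DLK1 domain, ran from 10.1 to 32.4 CPM in Co, from 16.8 to 24.9 in FeEV and from 9.68 to 59.7 in FoEV, and FoEV replicate 1 held the highest value. MEG8, a noncoding RNA of the same domain, had an SD of 0.55. The 2 genes went together over the 15 libraries after subtracting the treatment means (r = 0.923, permutation p = 0.00055, adjusted p = 0.0214 over 39 relations, rho = 0.825, permutation p = 0.00226, adjusted p = 0.0441). Without the 2 libraries farthest from the median of MEG3, r was 0.921, and within Co, FeEV and FoEV it was 0.967, 0.765 and 0.934. Their treatment means did not differ beyond this spread, with log2 fold changes in FoEV vs. Co of 0.26 for MEG3 (95% interval -0.68 to 1.202) and -0.29 for MEG8 (interval -0.98 to 0.41). DLK1, the protein-coding gene of the domain, had 1 count over all libraries. At the other end, GNAS had an SD of 0.09, and 98.8% of the genes had a larger one, again without matching for level.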
